A study of Mus musculus with 12 samples.

Results

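Transcripts of 10 genes of proteolysis at and just outside the cell surface were followed in activated mouse CD8+ T cells: Adam8, Adam10, Adam15, Adam17, Adam19, Timp1, Timp2, Plaur, Furin and Bsg. The members were chosen by gene symbol, and all 10 were found among the 55291 symbols of the count table. RNA of the cells was sequenced in bulk in 12 libraries that form 4 groups of 3: KO gel, KO media, WT gel and WT media. KO cells came from Dock8 KO mice, which lack a guanine nucleotide exchange factor for CDC42, and WT cells from wild-type mice; neither the targeted allele nor the age, sex or strain of the mice is given in the sources used here. Cells of all 4 groups were taken from lymph node and spleen and expanded outside the animal for 3 days after activation. Gel cells then spent 24 h inside a bovine collagen gel of 2 mg/mL and were recovered from it before RNA extraction, and media cells spent the same 24 h in medium without a gel. The study's design text gives 3 mice per group and do not say which libraries share a mouse, so the p-values measure the spread between these libraries.

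The ADAM proteins are membrane-anchored metalloproteases, and several of them cut other surface proteins close to the membrane and release their outer part, a step called shedding. Furin is the convertase that removes the inhibitory prodomain of many ADAM proteins on their way to the surface, and the TIMP proteins are secreted inhibitors of metalloproteases. The receptor encoded by Plaur holds urokinase at the cell surface, where plasminogen is turned into plasmin, and basigin, encoded by Bsg, is a glycoprotein known as an inducer of matrix metalloproteases and as a chaperone of lactate transporters. In T cells, ADAM10 and ADAM17 are known for the shedding of L-selectin, LAG3 and TNF.

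Totals ran from 28483064 to 61390702 counts per library, and 9 of the 10 members were among the 19010 genes with enough counts to test. Timp1 was too low. The level of a gene is given as CPM, its counts per 1e+06 counts of the library after scaling of the library totals by the trimmed mean of M values (TMM). Dock8 stood at 158 to 168 CPM in KO gel and 109 to 126 CPM in KO media, against 378 to 450 CPM in WT gel and 363 to 443 CPM in WT media, so transcripts of the targeted gene were reduced but present in the KO libraries. The log2 difference of Dock8 was −1.35 (SE 0.09) between KO and WT in gel and −1.77 (SE 0.09) in media (adjusted p = 8.44e-07 and 9.29e-08, edgeR's quasi-likelihood F test, adjusted by Benjamini and Hochberg's method). The summed level of 9 markers of CD8+ T cells, Cd8a and Cd3e among them, was 3086 to 3152 CPM in KO gel, 3116 to 3448 CPM in KO media, 3376 to 3691 CPM in WT gel and 3315 to 3676 CPM in WT media. The KO gel libraries thus lay below all WT libraries in this sum. The KO gel libraries stood apart from the others in a measure of library content: at a common depth of 28483064 counts, 27131 to 28445 genes were detected in each of them and 23202 to 24240 in each of the 9 other libraries. Their share of mitochondrial counts was 2.27 to 2.61%, against 1.34 to 2.31% in the others.

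Set against exon length, the members spanned a wide range of abundance. Bsg was highest, with a median of 75.9 CPM per kb over the 12 libraries (range 65.0 to 92.1), followed by Adam10 at 42.9 and Adam19 at 28.2 CPM per kb. Adam17 (11.4 CPM per kb), Furin (9.77 CPM per kb) and Adam8 (9.64 CPM per kb) formed a middle tier. Plaur followed at 3.41 CPM per kb, Adam15 at 0.984, Timp2 at 0.960 and Timp1 at 0.117. Adam17 and Furin, Furin and Adam8, and Adam15 and Timp2 could not be ordered, because their ranges over the libraries overlapped, while the ranges of the other neighbours did not. The sheddase genes Adam10 and Adam19 thus held more transcript per length than Adam17 in every library, and both inhibitor genes stood at the low end.

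**Figure D1:**
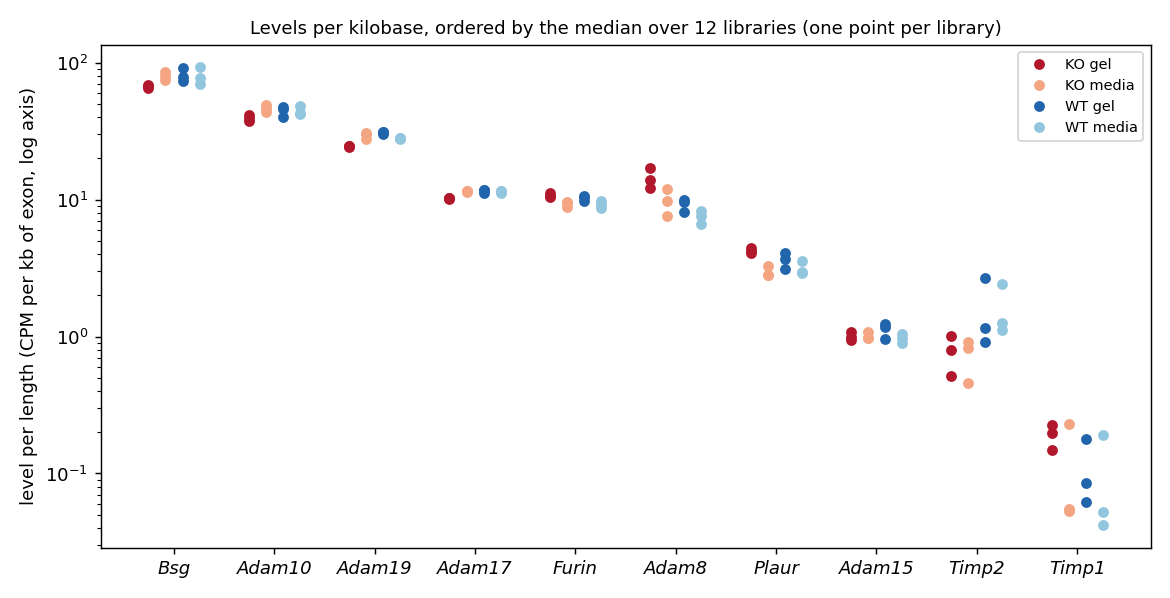
Levels of the 10 members per kilobase of exon on a log axis, with a point for each of the 12 libraries coloured by group and the genes ordered by their median. Bsg, Adam10 and Adam19 lie above all others, and Timp1 lies lowest at a median of 0.117 CPM per kb.

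The first question of the design is how KO cells differed after a day in collagen from KO cells kept in medium. Only gel cells were recovered from a gel, so the culture and the recovery cannot be told apart. The response to the gel, as the term is used below, covers both. In KO cells 5 of the 9 members tested passed the test between gel and media, beside 20.8% of all genes tested: Adam8, Plaur and Furin were higher in gel, and Adam17 and Adam19 were lower. The share of all genes called higher was 11.1% and the share called lower 9.74%. With each single library left out, 2 to 3 members were called, and with scaling by total counts 2, Adam8 and Plaur. The shares of all genes called under these settings are not given, so the smaller counts do not show a change particular to the members. Over the 9 members the median log2 difference was −0.003, beside −0.007 over all genes, and the median size of the difference regardless of sign was 0.23, beside 0.22 over all genes. Both values lay close to those of all genes, so the differences are given gene by gene. Where libraries are said below to lie apart, the share of all genes that do so is not given. Such statements describe the single gene only.

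**Figure D2:**
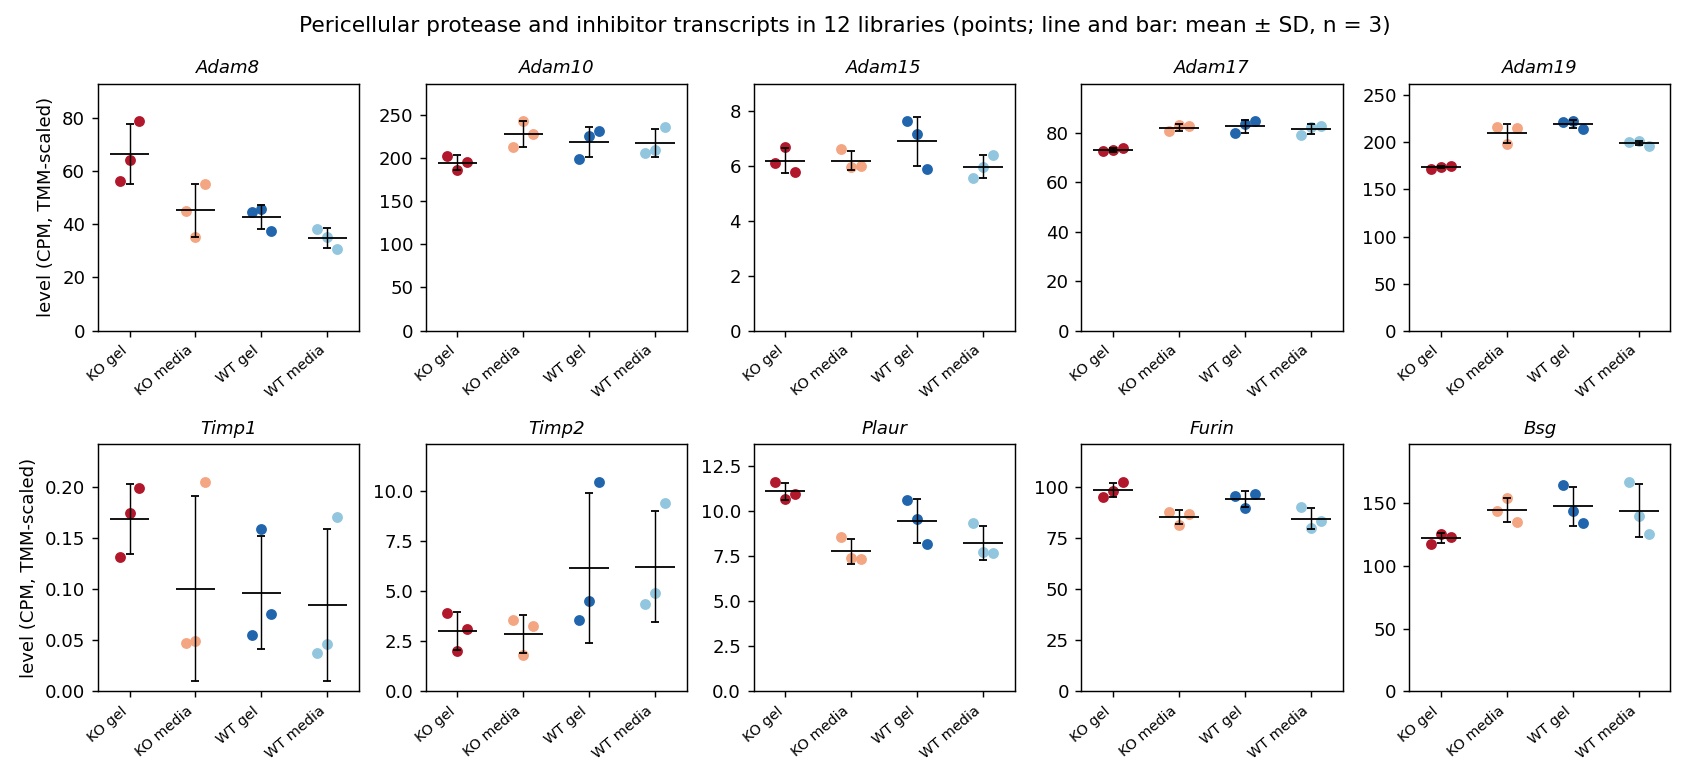
Level of each member in CPM (vertical axis, from 0) in the KO gel, KO media, WT gel and WT media libraries, with a point per library and the mean and SD of 3 libraries in black. For Adam8 and Plaur all KO gel points lie above all KO media points, and for Adam17 and Adam19 all KO gel points lie below the points of every other group.

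Adam8 encodes a metalloprotease best known from leukocytes, and its gene lies on the minus strand of chromosome 7 (139978932 to 139992562, GRCm38, GENCODE M21). Its promoter, 250 bases before to 50 bases after the RefSeq start on GRCm38.p6 (chr7:139992513-139992812, minus strand), is shown because Adam8 had the largest called difference among the members in KO cells. Capitals mark a GC box, searched here and below as GGGCGG on both strands.
Adam8: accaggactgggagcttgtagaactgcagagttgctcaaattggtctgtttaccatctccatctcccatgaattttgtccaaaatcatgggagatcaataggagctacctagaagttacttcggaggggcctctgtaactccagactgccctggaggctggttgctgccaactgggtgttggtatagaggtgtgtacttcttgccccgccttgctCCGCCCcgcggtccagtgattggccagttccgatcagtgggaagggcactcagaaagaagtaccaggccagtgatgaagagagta
Adam8 had levels of 56.3, 64.2 and 78.6 CPM in KO gel, 44.9, 35.2 and 55.1 CPM in KO media, 44.5, 45.8 and 37.3 CPM in WT gel, and 38.1, 35.3 and 30.8 CPM in WT media. All 3 KO gel libraries lay above all 9 others. Adam8 was 47.2% higher in KO gel, at 66.3 ± 11.3 CPM, than in KO media, at 45.1 ± 9.94 CPM (SD, n = 3), a log2 difference of 0.56 (SE 0.15, adjusted p = 0.0228, edgeR's quasi-likelihood test). The call was lost when KO gel replicate 3 (0.42), KO media replicate 1 (0.55) or KO media replicate 2 (0.40) was left out, with an adjusted p of 0.0937, 0.0648 and 0.0725 in the same test. It was also lost when the 6 KO libraries were fitted by themselves (0.57, adjusted p = 0.0928). In WT cells Adam8 differed by 0.29 on the log2 scale (95% interval −0.05 to 0.63), and the libraries of gel and media overlapped.

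Plaur, on the plus strand of chromosome 7 (24462484 to 24475968), encodes the urokinase receptor. Its promoter (chr7:24462233-24462532, plus strand) is shown because the gene was called higher in KO gel whichever single library was left out. Capitals mark an AP-1 site, searched as TGANTCA on both strands, and a run of overlapping GC boxes.
Plaur: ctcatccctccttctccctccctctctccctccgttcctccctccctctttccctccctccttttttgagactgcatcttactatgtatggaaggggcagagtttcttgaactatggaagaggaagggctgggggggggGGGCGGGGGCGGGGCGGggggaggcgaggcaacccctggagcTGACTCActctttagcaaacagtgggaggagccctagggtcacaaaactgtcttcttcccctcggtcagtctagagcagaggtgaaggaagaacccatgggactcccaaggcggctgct
Plaur had levels of 11.6, 10.7 and 10.9 CPM in KO gel, 8.56, 7.39 and 7.31 CPM in KO media, 10.6, 9.55 and 8.14 CPM in WT gel, and 9.29, 7.71 and 7.66 CPM in WT media. All KO gel libraries lay above all other libraries, and the WT groups overlapped each other. The KO gel mean of 11.1 ± 0.473 CPM was 42.4% above the KO media mean of 7.75 ± 0.700 CPM (SD, n = 3). The log2 difference was 0.51 (SE 0.12, adjusted p = 0.00805, edgeR's quasi-likelihood test), and its adjusted p ran from 0.0130 to 0.0415 with each of the 6 libraries left out. Without the 2 libraries richest in ribosomal RNA, KO media replicate 3 and WT gel replicate 2, it was 0.47 and missed the threshold (adjusted p = 0.0573). In WT cells the difference was 0.19 (95% interval −0.06 to 0.45).

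Adam19 encodes a sheddase known from the heart and from neuregulin cleavage, and its gene lies on the plus strand of chromosome 11 (46055992 to 46147343). Its promoter (chr11:46055734-46056033, plus strand) is shown because Adam19 was the member whose response to the gel differed between genotypes. Capitals mark an AP-1 site and a GC box.
Adam19: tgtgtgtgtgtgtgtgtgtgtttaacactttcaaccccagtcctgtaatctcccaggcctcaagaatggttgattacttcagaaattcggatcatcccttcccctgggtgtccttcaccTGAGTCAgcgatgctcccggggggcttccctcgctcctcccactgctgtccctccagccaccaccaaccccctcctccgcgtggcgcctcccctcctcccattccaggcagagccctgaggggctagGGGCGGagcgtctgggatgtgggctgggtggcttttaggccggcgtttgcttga
Adam19 had levels of 172, 174 and 175 CPM in KO gel, 216, 198 and 215 CPM in KO media, 222, 223 and 214 CPM in WT gel, and 200.4, 201 and 196 CPM in WT media. Every KO gel library lay below the 9 others, and every WT gel library lay above every WT media library. Adam19 was 17.1% lower in KO gel, at 174 ± 1.51 CPM, than in KO media, at 209.8 ± 10.1 CPM (SD, n = 3), a log2 difference of −0.27 (SE 0.06, adjusted p = 0.00548, edgeR's quasi-likelihood test). It kept this call with each of the 6 libraries left out (adjusted p 0.00342 to 0.0230 in the same test). In WT cells Adam19 had a log2 difference of 0.14 (95% interval 0.02 to 0.26), which did not pass the adjustment over all genes (adjusted p = 0.895, edgeR).

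Adam17, the enzyme first named for releasing TNF, lies on the minus strand of chromosome 12 (21323509 to 21373632). Its promoter (chr12:21373583-21373882, minus strand) is shown beside that of Adam19, since both genes were lower in KO gel. Capitals mark a GC box.
Adam17: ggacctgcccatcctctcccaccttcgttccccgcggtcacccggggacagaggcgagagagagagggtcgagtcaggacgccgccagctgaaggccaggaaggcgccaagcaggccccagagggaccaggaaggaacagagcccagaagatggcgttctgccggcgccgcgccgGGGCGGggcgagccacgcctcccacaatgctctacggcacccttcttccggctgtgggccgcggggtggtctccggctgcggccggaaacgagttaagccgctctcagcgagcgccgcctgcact
Adam17 had levels of 72.5, 72.8 and 73.8 CPM in KO gel, 80.6, 83.0 and 82.7 CPM in KO media, 79.8, 83.8 and 84.7 CPM in WT gel, and 79.3, 82.4 and 82.8 CPM in WT media. The KO gel libraries lay below all 9 others, which overlapped one another. Adam17 was 11.1% lower in KO gel, at 73.0 ± 0.694 CPM, than in KO media, at 82.1 ± 1.32 CPM (SD, n = 3), a log2 difference of −0.17 (SE 0.05, adjusted p = 0.0370, edgeR's quasi-likelihood test). This call sat near the threshold and was lost with any of the 6 libraries left out (adjusted p 0.0556 to 0.0892), and the difference was −0.10 when the fit was limited to genes whose log2 CPM averaged at least 3. Adam17 shares 311 exon bases with Iah1 on the opposite strand, whose highest count was 901, and the strand setting of the counting is not given in the sources used here.

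Among the 9 members with a RefSeq promoter, an AP-1 site was present in 2 (Adam19 and Plaur), while 7.79% of 32544 mouse promoters of the same length hold one. GC boxes were present in 8 of the 9, all but Furin, against 35.9% of all promoters. A TATA box, searched as TATAAA, was found in Furin alone among them, against 13.6% of all promoters. Neither the CRE sequence TGACGTCA (1.80% of all promoters) nor the CArG box (1.64%) was found in these windows. The 2 promoters with an AP-1 site belong to a gene that was higher and a gene that was lower in KO gel.

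Adam10, the main sheddase of Notch receptors, had levels of 202.4, 185 and 195 CPM in KO gel, 213, 242 and 227 CPM in KO media, 198, 225 and 231 CPM in WT gel, and 206, 209 and 235 CPM in WT media. The KO gel libraries lay below the KO media libraries without overlap, and the WT groups overlapped. The log2 difference in KO cells, −0.23 (SE 0.08), did not pass the adjusted threshold (adjusted p = 0.0559, edgeR's quasi-likelihood test). Adam15, a widely expressed ADAM with an integrin-binding disintegrin domain, was low, at 5.79 to 6.67 CPM in KO gel, 5.97 to 6.59 CPM in KO media, 5.89 to 7.62 CPM in WT gel and 5.55 to 6.38 CPM in WT media. Its ranges overlapped in all 4 groups, and the 95% interval of its log2 difference in KO cells was −0.25 to 0.25.

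Furin had levels of 95.1, 97.6 and 102 CPM in KO gel, 87.6, 81.0 and 86.5 CPM in KO media, 95.5, 89.4 and 96.6 CPM in WT gel, and 89.9, 79.7 and 83.2 CPM in WT media. In KO cells the gel libraries lay above the media libraries without overlap, and in WT cells the lowest gel library lay just below the highest media library. Furin was 15.6% higher in KO gel, at 98.3 ± 3.60 CPM, than in KO media, at 85.0 ± 3.52 CPM (SD, n = 3), a log2 difference of 0.21 (SE 0.06, adjusted p = 0.0334, edgeR's quasi-likelihood test). The call was lost with any of the 6 libraries left out (adjusted p 0.0574 to 0.128). In WT cells the log2 difference was 0.16 (95% interval 0.02 to 0.29, adjusted p = 0.895, edgeR), and the difference between the genotypes' responses was 0.05 (SE 0.09).

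Bsg had levels of 118, 125 and 123 CPM in KO gel, 144, 154 and 135 CPM in KO media, 165, 144 and 134 CPM in WT gel, and 167, 139.9 and 126 CPM in WT media. The KO gel libraries lay together below every other library, while the WT libraries were widely spread in both cultures. The log2 difference of −0.24 (SE 0.10) between gel and media in KO cells did not pass the adjusted threshold (adjusted p = 0.0958, edgeR's quasi-likelihood test), nor did that of −0.27 (SE 0.10) between KO and WT in gel (adjusted p = 0.0824). Without WT gel replicate 3 that difference was −0.34 and called (adjusted p = 0.0460), and without WT media replicate 1 the interaction was −0.40 and called (adjusted p = 0.0462, edgeR), against −0.27 and no call with all libraries (adjusted p = 0.299).

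Both inhibitor genes were scarce. Timp1 had 5, 7 and 8 counts in KO gel, 3, 2 and 8 counts in KO media, 2, 4 and 3 counts in WT gel, and 2, 2 and 8 counts in WT media. Summed over a group, these are 20 counts in KO gel (exact 95% Poisson interval 12.2 to 30.9), 13 in KO media (6.92 to 22.2), 9 in WT gel (4.12 to 17.1) and 12 in WT media (6.201 to 21.0), intervals that cover counting error only. The intervals overlapped, and a difference in Timp1 was not detectable at this depth. Timp2, which inhibits metalloproteases and also takes part in the activation of MMP2, had levels of 3.91, 2.00 and 3.09 CPM in KO gel, 3.57, 1.79 and 3.23 CPM in KO media, 3.54, 4.498 and 10.4 CPM in WT gel, and 4.33, 4.90 and 9.37 CPM in WT media. The 2 WT libraries numbered 3 were the highest of all 12, and the KO libraries numbered 2 were the lowest in their groups.

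Timp2 was not called in any comparison among the 19010 genes tested. With no filter beyond 1 count it was called between KO and WT in media, at −1.09 (adjusted p = 5.2e-09, edgeR's quasi-likelihood test). In the main fit the log2 difference of Timp2 between KO and WT was −1.06 in gel (SE 0.46, adjusted p = 0.151, edgeR's quasi-likelihood test) and −1.10 in media (SE 0.45, adjusted p = 0.625). The difference in media was thus nearly the same in both fits. The call without the filter depends on that setting and is not taken as a result. Without the 2 WT libraries numbered 3, an alternative chosen after the values were seen, these became −0.42 and −0.66 (adjusted p = 0.327 and 0.790, edgeR). The libraries of KO and WT overlapped in gel and did not overlap in media. Foxp3, the defining gene of regulatory T cells, was at 4.36 CPM in WT gel replicate 3 and 4.23 CPM in WT media replicate 3, and at no more than 0.883 CPM elsewhere, while Cd4 was at its lowest in those same 2 libraries (1.96 and 2.01 CPM). Itgae, the integrin chain CD103, stood at 315 CPM in WT gel replicate 3 and 314 CPM in WT media replicate 3, against 96.6 to 197 CPM elsewhere. The part of these genes in the Timp2 levels was not tested, and in bulk RNA fewer cells of a type and less RNA per cell cannot be told apart.

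**Figure D3:**
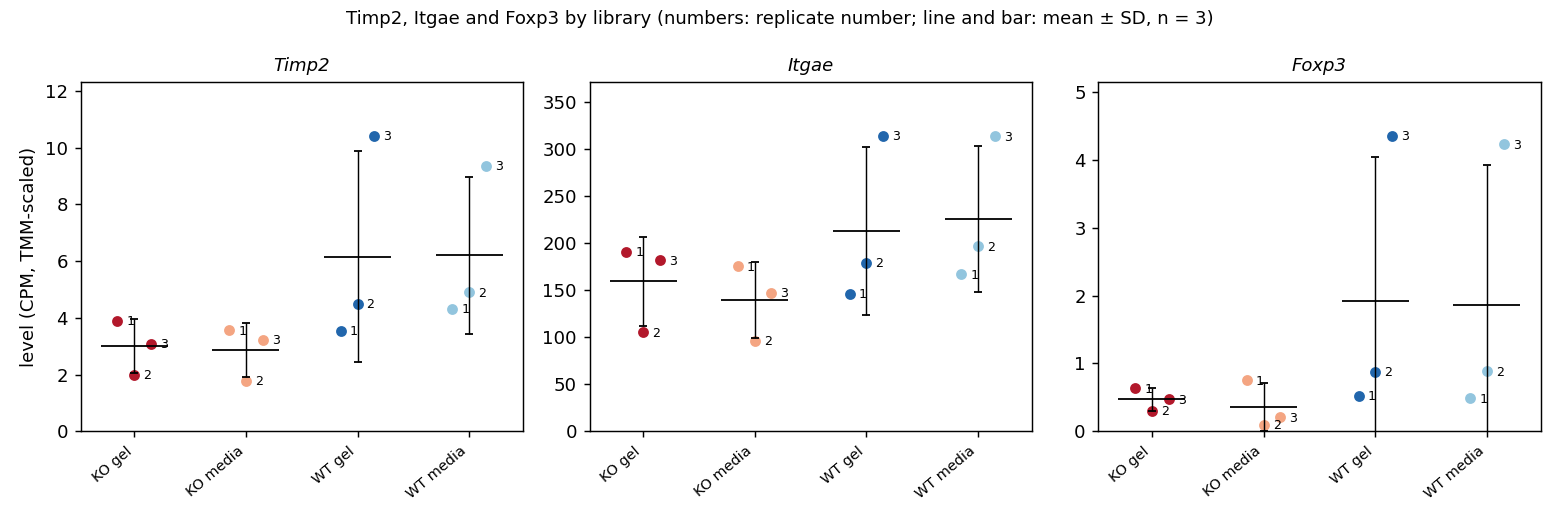
Levels of Timp2, Itgae and Foxp3 in CPM (vertical axes, from 0) in each library of the 4 groups, with the replicate number beside each point and the mean and SD of 3 libraries in black. All 3 genes are highest in the WT libraries numbered 3, in gel and in media.

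In WT cells none of the 9 members passed the test between gel and media with edgeR, with DESeq2 or with limma-voom, beside 0.0368% of all genes tested with edgeR, 0.263% with DESeq2 and 0.0368% with limma-voom. At an unadjusted p under 0.05 there were 2, Adam19 and Furin, beside 5.43% of all genes. All 9 log2 differences were positive, with a median of 0.14 beside −0.006 over all genes, but the signs of Adam10, Adam17, Timp2 and Bsg turned negative when libraries were scaled by their total counts. The largest was that of Adam8, given above.

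Between genotypes in gel, 3 of 9 members passed the test, beside 14.8% of all genes: Adam8 was higher in KO gel (7.12% of all genes were called higher), and Adam17 and Adam19 were lower (7.71% were called lower). With each library left out 1 to 3 members were called, and with scaling by total counts 1, Adam8. These counts, too, stand without the share of all genes called under the same setting. The comparison of KO and WT in gel shares the KO gel libraries with the one between gel and media in KO cells. The same 3 genes stood apart in those libraries in both. Adam8 had a log2 difference of 0.64 (SE 0.16, adjusted p = 0.0150, edgeR's quasi-likelihood test), or 56.1% more in KO gel than in WT gel. Without KO gel replicate 3 it was 0.50 and no longer called (adjusted p = 0.0623). Adam19 was 20.8% lower in KO gel, at −0.34 on the log2 scale (SE 0.06, adjusted p = 0.00184), and kept its call with each library left out. Adam17 was 11.7% lower, at −0.18 (SE 0.05, adjusted p = 0.0356), and remained called only when WT gel replicate 1 was the library left out, with −0.10 when the fit was limited to abundant genes as above. Plaur had a log2 difference of 0.23 (95% interval −0.02 to 0.48) and Adam10 one of −0.17 (−0.34 to 0.003), and neither passed.

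Between genotypes in media no member passed the test with edgeR, DESeq2 or limma-voom, beside 0.189% of all genes with edgeR, 0.468% with DESeq2 and 0.195% with limma-voom. At an unadjusted p under 0.05 there were 2, Adam8 with a log2 difference of 0.38 and Timp2 with −1.10, beside 7.49% of all genes. Of the other 7, Plaur had the largest difference in size, at −0.08.

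**Figure D4:**
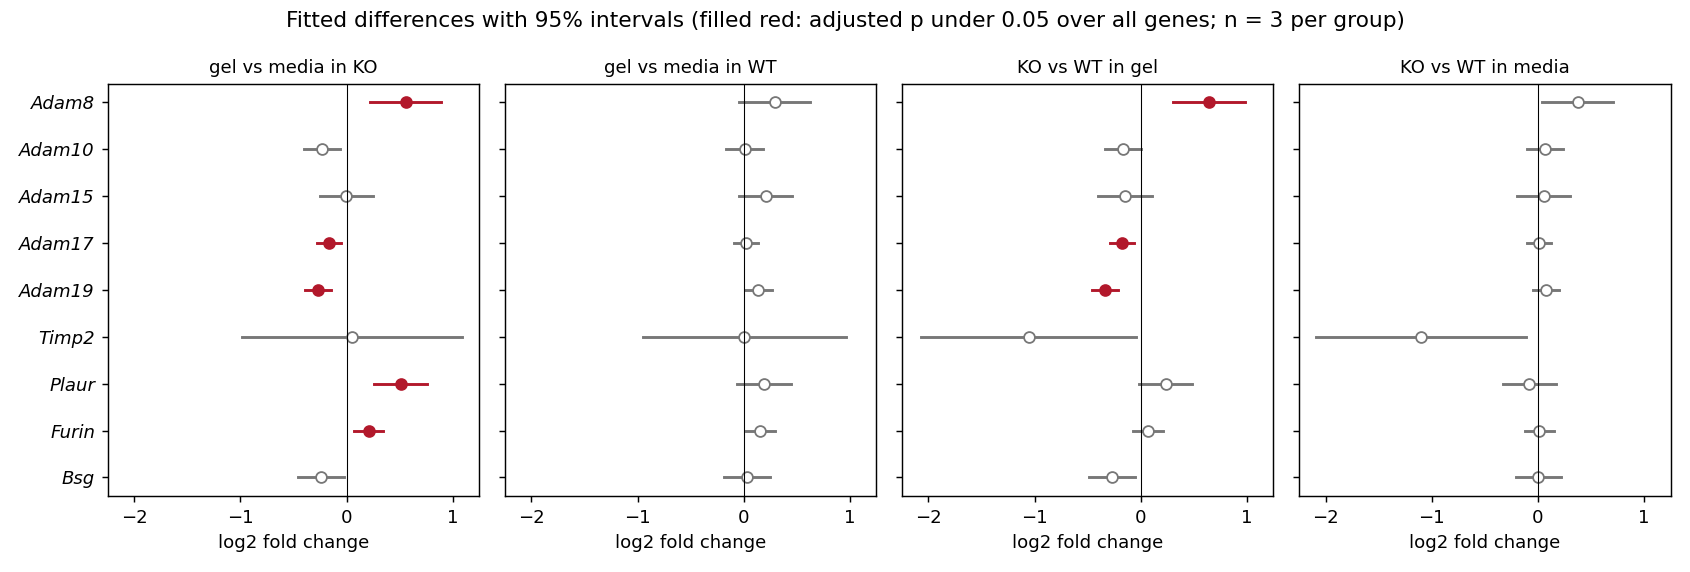
Log2 differences of the 9 tested members (horizontal axis) with 95% intervals in 4 comparisons, KO gel and WT gel against their media and KO against WT in gel and in media, with filled red points for an adjusted p under 0.05 over all genes. The 8 called points all lie in the 2 comparisons that hold the KO gel libraries, and the intervals of Timp2 are the widest.

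Whether the response to the gel differed between genotypes was tested as the interaction of genotype and culture, the gel-against-media difference in KO cells minus that in WT cells. Adam19 was the 1 member of 9 called, beside 3.35% of all genes tested and 1.45% called in its direction, with −0.41 on the log2 scale (SE 0.08, 95% interval −0.58 to −0.23, adjusted p = 0.0189, edgeR's quasi-likelihood test). The call was lost without WT gel replicate 2 (−0.40, adjusted p = 0.0522) or WT media replicate 2 (−0.42, adjusted p = 0.0513) and kept without each of the 10 other libraries. Without KO media replicate 3 and WT gel replicate 2 together, the libraries richest in ribosomal RNA, it was −0.39 and not called (adjusted p = 0.127). For Adam17 the interaction was −0.19 (SE 0.07, adjusted p = 0.180), for Plaur 0.32 (SE 0.17, adjusted p = 0.308) and for Adam8 0.27 (SE 0.22, adjusted p = 0.530), so their responses were not shown to differ between the genotypes.

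Calls of small differences depended on how library totals were scaled. Scaling by total counts alone left Adam8 (0.60) and Plaur (0.54) called between gel and media in KO cells (adjusted p = 0.00960 and 0.00806, edgeR), and Adam8 (0.75) called between KO and WT in gel (adjusted p = 0.00296). Under it Adam17, Adam19 and Furin lost their calls, at −0.13, −0.23 and 0.25 in KO cells. Between KO and WT in gel Adam17 and Adam19 lost theirs, at −0.074 and −0.23, and so did the interaction of Adam19, at −0.28.

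Other genes of the same processes were taken from 7 lists and are described here by their calls in the same fits. The lists were chosen with earlier results of these data known. Their shares and medians beside those of all genes are therefore descriptions and no test of a list. Of the plasminogen activation list all 9 genes were tested, and 3 were higher in KO gel than in KO media and none lower, with a median log2 difference of 0.57, beside 11.1% of all genes called higher and a median of −0.007 over all genes. The differences of 6 genes were positive and those of 3 negative: Anxa2 (−0.37), Plau (−0.21) and S100a10 (−0.13), none of them called. Lrp1, the endocytic receptor that clears protease and inhibitor complexes together with the urokinase receptor, had levels of 4.86, 5.74 and 5.98 CPM in KO gel, 0.456, 0.538 and 0.590 CPM in KO media, 0.858, 1.27 and 0.856 CPM in WT gel, and 0.599, 1.11 and 0.448 CPM in WT media. All KO gel libraries lay far above all others, with a log2 difference of 3.40 (SE 0.26, adjusted p = 4.06e-06, edgeR's quasi-likelihood test) in KO cells. The response of Lrp1 differed between genotypes by 2.95 on the log2 scale (SE 0.40, adjusted p = 0.00317, edgeR).

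Mrc2, a receptor that takes up collagen, stood at 0.325 to 0.698 CPM in KO gel, 0.0245 to 0.142 CPM in KO media, 0 to 0.0796 CPM in WT gel and 0 to 0.0929 CPM in WT media, and was called higher in KO gel than in KO media (adjusted p = 0.00792) and than in WT gel (adjusted p = 0.00383, edgeR's quasi-likelihood test). Mrc2 had enough counts to be tested only through the KO gel libraries, where it was high. Its calls, and its place in the count of the list, thus rest on a filter passed through those same libraries. Serpine2, encoding protease nexin-1, differed by 0.57 in KO cells (adjusted p = 0.0177) and by 0.51 in WT cells (adjusted p = 0.641, edgeR), with no overlap between gel and media in either. Plau, which encodes urokinase itself and was named after its values were seen, stood at 0.274 to 0.396 CPM in KO gel, 0.308 to 0.538 CPM in KO media, 0.176 to 0.498 CPM in WT gel and 0.299 to 0.712 CPM in WT media.

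Of the ADAM10 and ADAM17 trafficking partners 6 of 9 were tested. In KO gel against KO media 2 were called higher and 1 lower, beside 11.1% and 9.74% of all genes. The iRhom genes Rhbdf1 and Rhbdf2, whose products carry ADAM17 to the surface, were called higher in KO gel than in KO media, by 1.06 and 0.34 on the log2 scale (adjusted p = 0.0218 and 0.0174, edgeR's quasi-likelihood test), and Tspan5, a tetraspanin partner of ADAM10, was called lower, at −0.26 (adjusted p = 0.0228). Among KO libraries Rhbdf2 stood at 17.02, 18.7 and 20.4 CPM in gel and 15.7, 13.3 and 15.4 CPM in media. In gel Tspan5 was also lower in KO than in WT, at −0.39 (adjusted p = 0.00355, edgeR).

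Of the surface proteins shed by ADAM10 or ADAM17, 16 of 17 were tested, 2 were higher and 1 was lower in KO gel than in KO media, a share near the 20.8% of all genes called. Tnf had levels of 30.8, 28.8 and 31.8 CPM in KO gel, 69.8, 46.4 and 60.5 CPM in KO media, 36.5, 39.5 and 38.0 CPM in WT gel, and 51.6, 52.9 and 60.2 CPM in WT media. Gel libraries lay below media libraries in both genotypes without overlap. The log2 difference of Tnf was −0.95 in KO cells (SE 0.12, adjusted p = 0.000145, edgeR's quasi-likelihood test) and −0.53 in WT cells (SE 0.12, adjusted p = 0.315), and the interaction was not called (−0.42, adjusted p = 0.169). Il15ra, which presents IL-15 and is itself shed, was higher in KO gel than in KO media by 0.50 (SE 0.10, adjusted p = 0.00333), and its interaction was 0.64 (adjusted p = 0.0265, edgeR). Cd40lg, the CD40 ligand, was higher by 1.30 (adjusted p = 0.0145) at 0.396 to 0.973 CPM in KO gel and 0.256 to 0.293 CPM in KO media. Between KO and WT in gel, Il15ra was higher by 0.44 (adjusted p = 0.00955) and Tnfrsf1a, a TNF receptor gene, lower, at −0.31 (adjusted p = 0.0160, edgeR).

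Of the basigin partners 9 of 10 were tested, and 3 were lower and none higher in KO gel than in KO media, with a median log2 difference of −0.23, beside 9.74% of all genes called lower and a median of −0.007 over all genes. These were Ppia and Ppib, the cyclophilin ligands of basigin, at −0.43 and −0.34 (adjusted p = 0.0113 and 0.0164, edgeR's quasi-likelihood test), and Slc16a1, the lactate transporter MCT1, at −0.31 (adjusted p = 0.0389). Slc16a3, the lactate transporter MCT4, was lower in KO gel than in WT gel, at −0.86 (SE 0.20, adjusted p = 0.0155), at 27.9, 33.6 and 27.3 CPM in KO gel and 63.6, 56.4 and 41.2 CPM in WT gel. Slc3a2, the heavy chain of CD98, was higher in that comparison by 0.21 (adjusted p = 0.0388, edgeR).

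Of the other protease inhibitors of the cell surface 6 of 7 were tested. In KO gel against KO media 2 were called lower and none higher, beside 9.74% and 11.1% of all genes. Between KO and WT in gel 2 were called higher and none lower, beside 7.12% and 7.71% of all genes. Spint2, a Kunitz-type inhibitor of serine proteases, and Cst3, which encodes cystatin C, were lower in KO gel than in KO media, at −0.30 and −0.38 (adjusted p = 0.0166 and 0.0187, edgeR's quasi-likelihood test), and Timp3 and Spint1 were higher in KO gel than in WT gel, by 2.63 and 1.01 (adjusted p = 0.0445 and 0.0423). Timp3 had 58, 100 and 60 counts in the KO gel libraries and 28, 2 and 0 counts in those of WT gel, so its fold rests on few counts in WT. Of the other surface and matrix metalloproteases 11 of 19 were tested. In KO gel against KO media 2 were called higher and none lower, a share near the 20.8% of all genes called. These were the membrane-type metalloprotease Mmp15 and Mmp19, by 0.63 and 2.12 (adjusted p = 0.0420 and 0.0316, edgeR), with Mmp19 at no more than 0.449 CPM in any library. Mmp19 had enough counts to be tested only through the KO gel libraries, so its call and its place in the count rest on that filter. In gel, Adamts14, a procollagen protease, was higher in KO than in WT by 0.84 (adjusted p = 0.00555) and Mmp17, a membrane-anchored metalloprotease, lower, at −0.67 (adjusted p = 0.0143, edgeR). In media Adamts14 was higher in KO by a like size, 0.83, without overlap of the libraries, but was not called (adjusted p = 0.101, edgeR). No other of the 11 was called between KO and WT in gel, beside 14.8% of all genes. None of the 5 convertase genes tested beside Furin was called in the comparisons made. No gene of the 7 lists was called between gel and media in WT cells or between genotypes in media by edgeR's quasi-likelihood test.

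**Figure D5:**
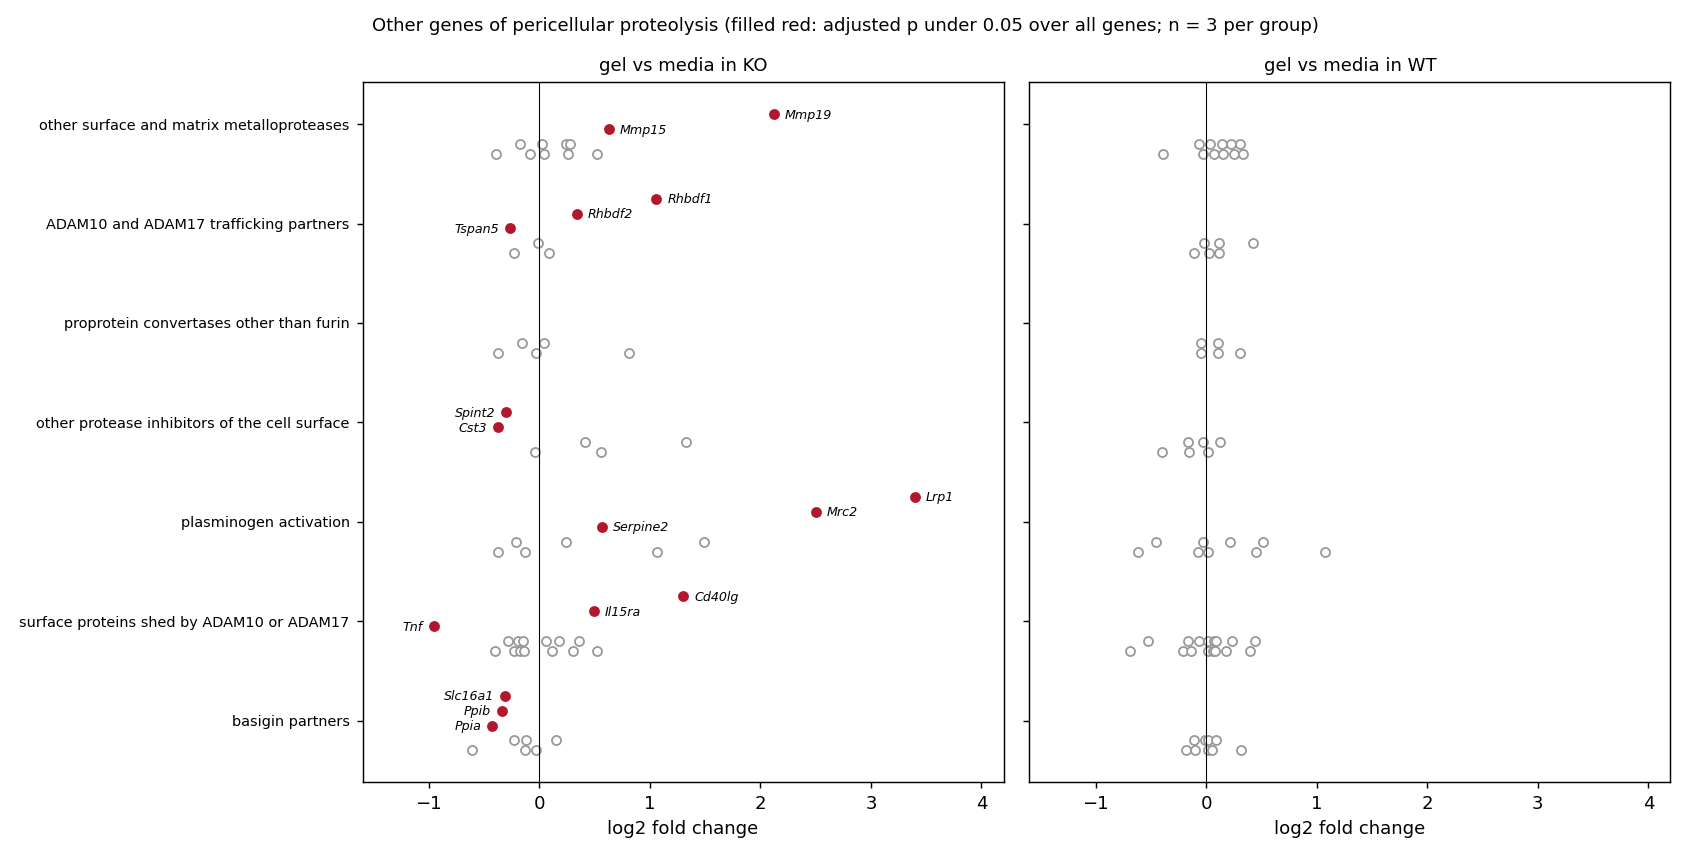
Log2 differences between gel and media (horizontal axes, same scale) of the tested genes of 7 lists around the members, in KO cells on the left and WT cells on the right, with named red points for an adjusted p under 0.05 over all genes. Lrp1 and Mrc2 lie farthest to the right in KO cells, and no point is red in WT cells. Mrc2 and Mmp19 had enough counts to be tested only through the KO gel libraries.

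The 3 members that varied most over the 12 libraries were Timp2, Adam8 and Plaur, with an SD of 0.74, 0.40 and 0.24 on the log2 CPM scale. Genes were ranked by how closely their centred log2 levels followed each of these, as the root mean square of the difference over the 12 libraries. The nearest to Timp2 were Itgae (0.27) and Lrig1 (0.35), where the median gene differed by 0.71. The nearest to Adam8 were Serpine2 (0.14) and Prrg4 (0.16), against a median of 0.42, and the nearest to Plaur were Ppp1r15a (0.083) and Eif2ak3 (0.10), against a median of 0.28. These genes were compared among 8733 or 8734 genes whose log2 CPM averaged at least 3, and likeness here describes the same 12 libraries and no more.

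Markers of other cell types moved with the KO gel libraries as well. The summed level of 7 erythroid and platelet markers was 11.1 to 25.1 CPM in KO gel, 5.02 to 7.61 CPM in KO media, 3.38 to 5.90 CPM in WT gel and 3.11 to 5.19 CPM in WT media. Of these 7, Hbb-bs, Hba-a1, Alas2 and Gp1bb were under 1 CPM in every library, and Itga2b made up much of the sum, at 7.15 to 11.4 CPM in KO gel and 2.33 to 3.74 CPM in the other libraries. The 5 mast cell markers summed to 9.71 to 15.5 CPM in KO gel, 5.69 to 8.80 CPM in KO media, 5.69 to 8.14 CPM in WT gel and 4.33 to 7.49 CPM in WT media. The 6 neutrophil markers summed to 1.19 to 1.35 CPM in KO gel and to at most 0.333 CPM in each other group, with S100a8, S100a9, Ly6g, Elane and Csf3r under 1 CPM in every library and Mpo making up most of the sum. The 7 macrophage and dendritic cell markers summed to 36.6 to 48.7 CPM in KO gel, 40.7 to 48.8 CPM in KO media, 20.4 to 37.0 CPM in WT gel and 20.4 to 37.2 CPM in WT media, with Lyz2, Csf1r, Adgre1, Cd14 and Flt3 under 1 CPM throughout and Itgax, which activated T cells also express, making up most of the sum. The sums of the B cell, CD4 and regulatory T cell, NK and γδ T cell, and stromal markers overlapped between KO gel and KO media.

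Single markers of T cell types moved with KO gel too. The sum of the 4 CD4 and regulatory T cell markers was mostly Zbtb7b, while Cd4 itself had levels of 3.85, 4.87 and 7.16 CPM in the KO gel libraries, against 2.63, 2.79 and 3.72 CPM in KO media, 2.77, 2.43 and 1.96 CPM in WT gel and 3.78, 2.76 and 2.01 CPM in WT media. Cd4 was called higher in KO gel than in KO media, by 0.81 on the log2 scale (adjusted p = 0.0348, edgeR's quasi-likelihood test), and than in WT gel, by 1.15 (adjusted p = 0.00958), and Cd40lg of the same list was called between gel and media. Zbtb7b and Foxp3 of that list were called in neither comparison. They differed by −0.13 and 0.25 (SE 1.31) between gel and media in KO cells. Between KO and WT in gel they differed by 0.03 and −2.08 (SE 1.12). Of the 9 CD8+ T cell markers 8 had a negative log2 difference between KO gel and KO media, with a median of −0.15, and 8 between KO and WT in gel, with a median of −0.16. Cd3g was called lower in KO gel than in KO media, by 13.8% (log2 −0.21, adjusted p = 0.0417), and Trac lower in KO gel than in WT gel, by 15.4% (log2 −0.24, adjusted p = 0.0157, edgeR). Each was the 1 marker of 9 called in its comparison, beside 9.74% and 7.71% of all genes called lower. Cd8a and Cd8b1 differed by 0.01 and −0.006 between KO gel and KO media, and by −0.16 and −0.15 between KO and WT in gel. The part of these markers, and of the larger number of genes detected, in the differences of the members in KO gel was not tested.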

How the data were processed

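Bulk RNA-seq was available for 12 libraries of 4 groups. The authors deposited 1 raw count per gene symbol and library, with no normalization. Per the labels' protocols, RNA was depleted of ribosomal RNA before library preparation. Per the submitters' processing notes, FastQC, MultiQC, HISAT2, SAMtools, Picard and featureCounts were used with GRCm38 (mm10); versions, gene annotation, strand setting and treatment of duplicates are not given in the sources, so reads of genes that overlap on opposite strands can be shared. The table held 0 columns of other samples.

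From the counts, edgeR 4.0.16 in R 4.3.3 kept 19010 genes by filterByExpr with the groups given, scaled totals by TMM, and fitted a robust quasi-likelihood model to the 4 groups at once. The 5 contrasts were gel against media in KO and in WT, KO against WT in gel and in media, and their interaction. Calls took a p under 0.05 after Benjamini-Hochberg adjustment over the 19010 genes. The SE is the size of the log2 difference divided by the square root of F, and intervals are at 95%. A prior count of 2 was added for log2 levels. The fit was tested on simulated data. Libraries of a group were no duplicates: in 12 pairs, the chi-square over genes was 11.8 to 155 times its degrees of freedom. This ratio is summed over genes and does not say how much of the error of a single gene comes from counting.

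The members and all gene lists were chosen with earlier results of these data known. Some genes of the lists are not reported here and were left out of the counts and sums. All members were described in every contrast, and of each list up to 4 called genes by p between gel and media in KO cells and up to 2 in each other contrast; genes near a member were the 2 nearest to each of the 3 most variable members. Gene positions and exon lengths came from GENCODE M21, and promoters from RefSeq on GRCm38.p6, which matched 9 of 10 members. Adam19 has 3 starts there and Furin 2, and for each the start nearest its GENCODE start was used. The start used for Timp2 lies 329 bases from its GENCODE start. Alternatives were RLE scaling, scaling by total counts, other filters, DESeq2 1.42.0, limma-voom (limma 3.58.1), a fit of only the groups compared, a block for the replicate number, and libraries left out.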

Additional observations from a re-analysis of the deposited data

Results flagged for a closer look

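The response of Adam19 to the gel differed between genotypes by the test of that difference itself: −0.41 on the log2 scale (SE 0.08, adjusted p = 0.0189, edgeR's quasi-likelihood test), with Adam19 lower in gel than in media in KO cells and its gel libraries above its media libraries in WT cells. The adjusted p was 0.00901 to 0.0522 with each of the 12 libraries left out in turn. The call was lost with scaling by total counts (−0.28, adjusted p = 0.208) and without the 2 libraries richest in ribosomal RNA (−0.39, adjusted p = 0.127). The groups of 3 libraries were too small for a check of single libraries that stand apart.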

How the results depend on the processing

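Of 773 values of single members under another setting, 663 kept their direction and their side of the threshold, 42 lost a call, 21 gained one and 47 changed sign; each of the sign changes was in a difference that was not called. The number of members called between gel and media in KO cells, 5, became 2 with scaling by total counts and 2 without the 2 libraries richest in ribosomal RNA, and was 2 to 3 with each library left out. Between KO and WT in gel the 3 became 1 with total counts and 1 to 3 with each library left out. Between KO and WT in media the 0 became 2 (Adam8 and Timp2) with no filter beyond 1 count, and was 0 with each library left out. In the interaction the 1 became 0 with total counts, 0 without the libraries richest in ribosomal RNA, and 0 to 2 with each library left out. In WT cells no setting gave a call between gel and media. The causes were not tested. These counts, and those of the replicate block below, stand without the share of all genes called under the same setting. They therefore do not show a change particular to the members. Total counts moved the median of all genes by 0.102 between KO and WT in gel and by 0.124 in the interaction, on the log2 scale.

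Replicate numbers were checked as pairs by the correlation of deviations from the group means. Over all genes it was 0.064, 0.167 and 0.075 between KO gel and KO media and 0.422, 0.056 and 0.506 between WT gel and WT media, and over genes whose log2 CPM averaged at least 3 it was −0.04, 0.2 and 0.174 in KO and 0.786, 0.238 and 0.796 in WT. By the abundant genes the WT gel and media numbers thus deviated together, and so did KO media and WT media (0.214, 0.17 and 0.382), while KO gel with KO media and KO gel with WT gel had a pair below 0.1 by either set. The numbers were therefore not used as pairs; in the 2 comparisons where the abundant genes passed, the block changed no call. With the replicate block, 7 members, Adam10 and Bsg in addition, were called between gel and media in KO cells, 0 in WT cells, 4 between KO and WT in gel, 0 in media and 2 (Adam19 and Bsg) in the interaction. A block nested in genotype, added after the data were seen, gave 7 in KO cells and 0 in WT cells.

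The sign of Adam15 between gel and media in KO cells turned with RLE scaling (0.0060), total counts (0.031), DESeq2 (0.0042) and a fit of only those groups (0.0046). With total counts, differences between gel and media in WT cells turned for Adam10 (−0.084), Adam17 (−0.069), Timp2 (−0.069) and Bsg (−0.056), and between KO and WT in media for Adam17 (−0.011), Furin (−0.0080) and Bsg (−0.017). With no filter, Adam10 (−0.0010) and Timp2 (−0.0019) turned in WT cells. There Timp2 also turned with DESeq2 (−0.0012), limma-voom (−0.031), the replicate block (−0.038) and the nested block (−0.057), and without both WT libraries numbered 3 (−0.20), which also turned Bsg between KO and WT in media (−0.071). Without the libraries richest in ribosomal RNA, Adam10 in WT cells (−0.0090) and the interaction of Timp2 (−0.050) turned. With each library left out, signs turned between gel and media in KO cells for Timp2 (−0.20 to 0.27) and Adam15 (−0.063 to 0.043), and in WT cells for Timp2 (−0.63 to 0.44), Bsg (−0.057 to 0.15) and Adam10 (−0.032 to 0.073). They turned between KO and WT in media for Bsg (−0.087 to 0.12), Plaur (−0.16 to 0.017), Furin (−0.025 to 0.064) and Adam17 (−0.0071 to 0.025), and in the interaction for Timp2 (−0.39 to 0.67) and Furin (−0.0010 to 0.088).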
